A study of Mus musculus with 12 samples.

Results

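The genes described here are the 3 classical uncoupling proteins, Ucp1, Ucp2 and Ucp3, and 4 genes used to recognise brown fat, Cidea, Elovl3, Dio2 and Prdm16. These 7 were taken by gene symbol from a table of 54178 gene entries, and all 7 were found. The table comes from RNA sequencing of whole mouse hearts, in a study whose title asks whether the transcriptional co-regulator Cited4 is needed for heart growth with exercise. There were 12 libraries in 4 groups of 3: KO labelled exercise, Flox labelled exercise, KO labelled sedentary and Flox labelled sedentary. Flox mice carried Cited4 alleles flanked by loxP sites. KO mice carried the same alleles and a cre transgene under the aMHC promoter, which is active in cardiomyocytes, so other cells of the heart keep the gene. No group carried cre with intact Cited4 alleles, so the loss of Cited4 and the transgene cannot be told apart. Exercise was voluntary running on a wheel for 8 weeks, and sedentary mice were kept for as long without it. Age, strain and the animal behind each sample are not in the labels, so the spread that p-values rest on is that between samples and may be technical.

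Treatment is given as labelled because the letters of the title codes contradict the words (E beside the sedentary word, S beside the exercise word). Were the letters right, every exercise direction below would turn, and the comparisons of genotype at each treatment would swap.

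Uncoupling proteins are carriers of the inner mitochondrial membrane. Ucp1 lets protons back into the matrix so that brown fat burns fuel as heat, and its gene is switched on by noradrenaline through beta-adrenergic receptors and cyclic AMP. Ucp2 and Ucp3 are relatives found in many tissues and in muscle and heart, where Ucp3 follows fatty acid supply. The other 4 genes serve brown fat in different ways: Cidea enlarges lipid droplets, Elovl3 lengthens fatty acid chains, Dio2 makes active thyroid hormone inside the cell, and Prdm16 is a transcription factor that fixes brown fat identity.

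The promoters of Ucp1, Dio2 and Ucp2 are shown because they had the 3 smallest p-values of the 6 genes tested for KO over Flox within the sedentary label. Each sequence is the 250 bases before the RefSeq start, read on the strand of the gene in GRCm38.p6, and capitals mark TGACG, the half-site of the cyclic AMP response element, on either strand. The Ucp1 window lies at chr8:83290098-83290347 on the plus strand, that of Dio2 at chr12:90739039-90739288 on the minus strand, and that of Ucp2 at chr7:100493108-100493357 on the plus strand.
Ucp1: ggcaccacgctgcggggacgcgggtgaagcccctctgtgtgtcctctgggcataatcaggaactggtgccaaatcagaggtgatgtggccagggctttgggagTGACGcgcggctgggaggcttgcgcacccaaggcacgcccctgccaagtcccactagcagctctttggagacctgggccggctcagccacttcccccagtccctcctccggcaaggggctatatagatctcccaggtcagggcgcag
Dio2: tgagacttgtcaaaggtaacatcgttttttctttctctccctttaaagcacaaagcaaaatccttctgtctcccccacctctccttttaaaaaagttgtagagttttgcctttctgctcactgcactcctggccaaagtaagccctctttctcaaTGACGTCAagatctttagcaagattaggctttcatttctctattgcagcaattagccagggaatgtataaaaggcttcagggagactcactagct
Ucp2: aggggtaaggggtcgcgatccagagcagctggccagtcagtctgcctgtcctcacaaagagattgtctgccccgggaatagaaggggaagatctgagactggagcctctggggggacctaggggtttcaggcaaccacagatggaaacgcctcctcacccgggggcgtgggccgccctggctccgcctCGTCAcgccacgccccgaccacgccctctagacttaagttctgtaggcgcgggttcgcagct
The Dio2 window holds the whole element, TGACGTCA, from base -95 counted back from the start, and 1.55% of the 32851 promoters in the table hold it on either strand. The half-site TGACG is found once in the Ucp1 window, from base -147, and once on the opposite strand in the Ucp2 window, from base -62. It is found in 17.8% of all promoters. The TATAAA box was found in the Dio2 window only of these 3, from base -30, and is in 12.4% of all promoters. These are matches of letters in short windows. The enhancer for which mouse Ucp1 is known lies farther upstream and is not in this window. Of the 7 genes, 5 had an entry in the promoter table.

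In the GENCODE annotation of GRCm38, Ucp1 spans chr8:83290352-83298452, Ucp2 chr7:100493337-100502020 and Dio2 chr12:90724552-90738438, and the RefSeq start of Dio2 used above lies upstream of that span. Ucp2 overlaps Dnajb13, Ucp3 overlaps Gm10603, Cidea B430212C06Rik, Elovl3 Pitx3, Dio2 Gm26512, and Prdm16 B230104I21Rik, Gm13133 and Gm13134. Since the counting by strand is not stated, reads of such pairs on opposite strands cannot be told apart.

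The libraries held 17465432 to 20467300 counts. Cited4 had at most 5 counts in any KO library and at least 192 in any Flox library, as the genotype labels say. Levels are CPM, counts scaled to a common library size. Some libraries stand apart in the tissue they hold. The summed level of 10 atrial cardiomyocyte markers was 3540, 328 and 3340 CPM in KO labelled exercise, 318, 4870 and 274 in Flox labelled exercise, 1680, 11300 and 21800 in KO labelled sedentary, against 348, 399 and 4330 in Flox labelled sedentary. Of 20 adipocyte markers, the 18 with enough counts to test had a mean log2 CPM of 3.54 to 4.14 in the 3 KO libraries labelled sedentary and 0.66 to 1.91 in the other 9. The summed level of all 20 was 853 to 1060 CPM in those 3 and 582 to 1040 in the other 9. Of 10 skeletal muscle markers, the 6 with enough counts to test had a mean log2 CPM of 0.79 to 1.47 in KO labelled sedentary and -0.01 to 0.70 in the other 9. The summed level of all 10 was 26.7 to 47.6 CPM in KO labelled sedentary and 17.6 to 55.2 in the other 9, with Myh4 at 0 in all 12. For both lists the mean log2 levels did not overlap, while the sums, in which the most abundant genes weigh most, did. The means leave out the genes with few counts and the sums do not, so the 2 measures also differ in their genes. A gene high in a single group could enter the means through that group. Ventricular markers summed to 44400 to 53300 CPM in KO labelled sedentary, against 60100 to 63700 in Flox labelled sedentary and 47500 to 63700 in the other 9. In whole tissue, fewer cells of a type and less RNA per cell cannot be told apart.

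Members were sorted by their level in Flox hearts. Ucp2, Ucp3, Cidea and Prdm16 had at least 1 CPM in each of the 6 Flox libraries and are called heart-expressed here. Their ranges in Flox hearts were 53.3 to 83.9 CPM for Ucp2, 21.3 to 70.1 for Ucp3, 19.9 to 32.9 for Cidea and 15.3 to 23.9 for Prdm16. Ucp1 (0 to 3.89 CPM), Elovl3 (0 to 0.236) and Dio2 (0.472 to 2.96) fell short of that level in 1 or more Flox libraries. Dio2 did so only in Flox labelled sedentary replicate 2 and had 9 to 52 counts in the Flox libraries, so the class does not mean that the heart lacks it. Cidea, although a brown fat marker, thus stood with the heart-expressed genes.

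Per kilobase of the principal transcript, Cidea had 23.7 ± 4.23, Ucp3 20.6 ± 7.55 and Ucp2 18.2 ± 2.91 CPM per kilobase in Flox hearts (SD, n = 6), which do not differ beyond their spread. Prdm16 followed with 2.27 ± 0.354 CPM per kilobase. Ucp1 (0.413 ± 0.964) and Dio2 (0.284 ± 0.149) came next, and Elovl3 was lowest at 0.0349 ± 0.0464 CPM per kilobase. In KO hearts labelled sedentary the order began with Ucp2 (35.2 ± 1.22), Cidea (33.1 ± 8.72) and Ucp1 (31.3 ± 24.4 CPM per kilobase, SD, n = 3). Ucp1 thus stood level with the heart-expressed genes in that group and not in the other 3.

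**Figure D1:**
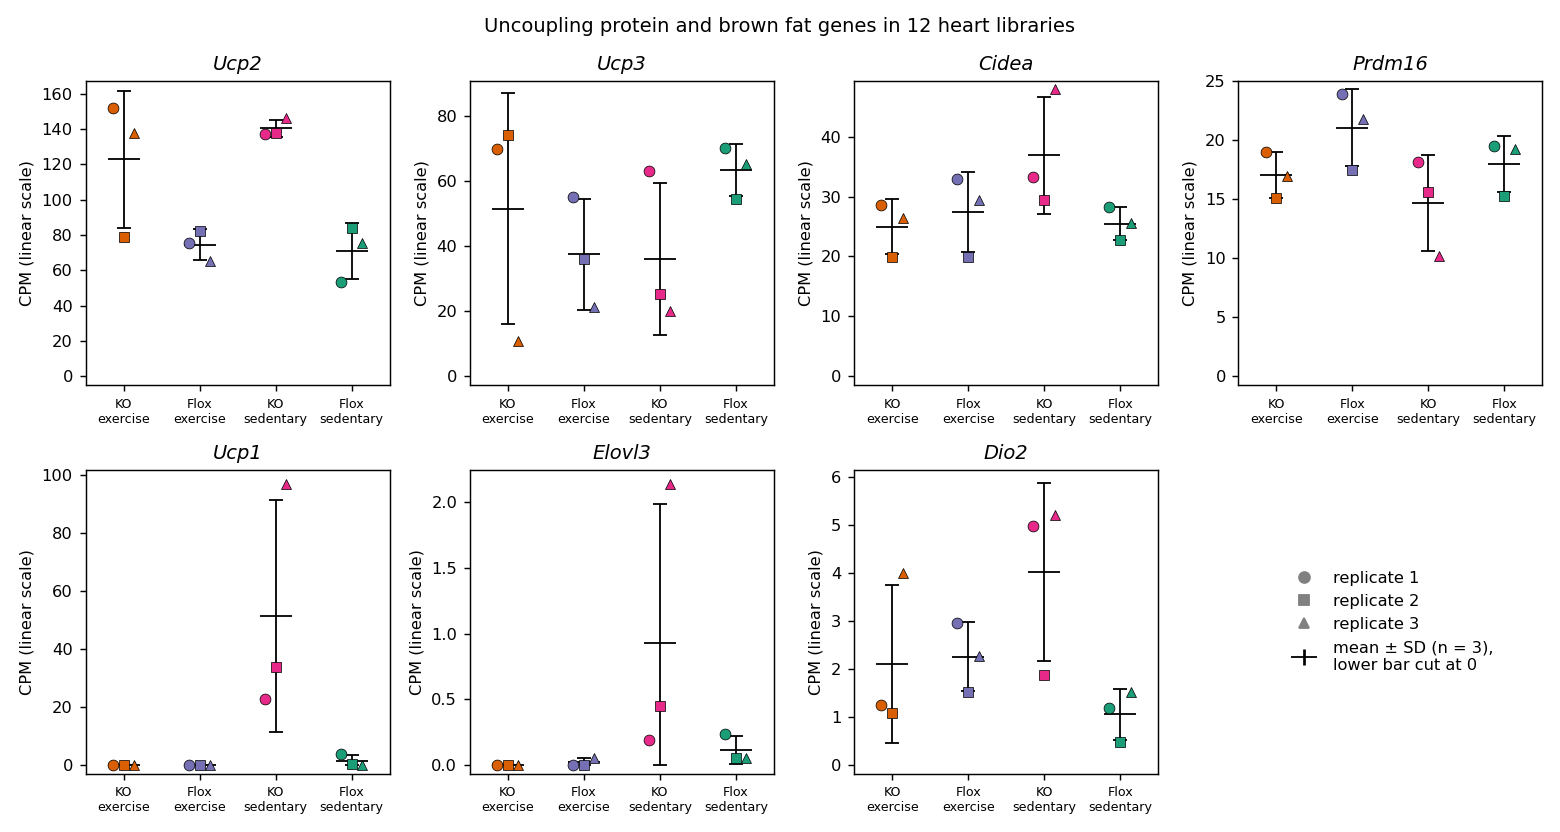
Level in CPM of each of the 7 genes (linear axes from 0) in the 12 heart libraries, by genotype and treatment label, with points for replicates 1 to 3 and bars for the mean ± SD. The upper row holds the 4 heart-expressed genes and the lower row the other 3. Ucp1 reaches 22.8 to 96.9 CPM in KO labelled sedentary and at most 3.89 CPM elsewhere.

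For KO over Flox within the sedentary label, 4 of the 7 genes had every KO library above every Flox library: Ucp1, Ucp2, Cidea and Dio2. The same was true of 10.4% of all 15226 genes tested, and 7.93% had every KO library below, as 0 members did. EdgeR's quasi-likelihood test called 0 of the 6 members with enough counts at an adjusted p of 0.05, where it called 0.125% of all genes. At an unadjusted p of 0.05, 4 of the 6 passed (Ucp1, Ucp2, Cidea and Dio2), against 13.5% of all genes. DESeq2 called 2 of the 6, Ucp2 and Dio2, in a comparison in which it called 2.59% of all genes. Elovl3 had too few counts to be tested.

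For KO over Flox within the exercise label the libraries of all 7 genes overlapped between genotypes, where 7.61% of genes had every KO library above and 7.23% every KO library below. EdgeR called 0 of the 6 (0.00657% of all genes), 1 passed at an unadjusted p of 0.05 (7.94% of all genes), and DESeq2 called 0 (0.0657%). Averaged over treatment labels, edgeR called 0 of the 6 for KO over Flox (0.0525% of all genes), 3 passed unadjusted (11.6%), and DESeq2 called Ucp2 (1.13% of all genes). Calls of edgeR toward a higher level in KO made up 0.0328% of genes.

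For exercise over sedentary labels in KO mice, edgeR called 0 of the 6 (0.0197% of all genes), 2 passed unadjusted (10.6%), and DESeq2 called 1, Ucp1 (0.795% of all genes). Ucp1, Cidea and Elovl3 had every KO library labelled exercise below every KO library labelled sedentary, as did 7.31% of all genes tested, while 5.82% had them above, as 0 members did. In Flox mice edgeR called 0 of the 6 (0% of all genes), 0 passed unadjusted (7.41%), and DESeq2 called 0 (0.322%). Dio2 had every Flox library labelled exercise above every Flox library labelled sedentary, as did 7.5% of genes, and 6.57% had them below, as 0 members did. Averaged over genotypes, edgeR called 0 of the 6 (0.0263% of all genes), 1 passed unadjusted (8.45%), and DESeq2 called Ucp1 (0.335% of all genes). For the genotype by treatment interaction edgeR called 0 of the 6 (0% of all genes), 2 passed unadjusted (9.88%), and DESeq2 called 0 (0.328%). Comparisons that share a group share its libraries, so their values are given side by side only.

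**Figure D2:**
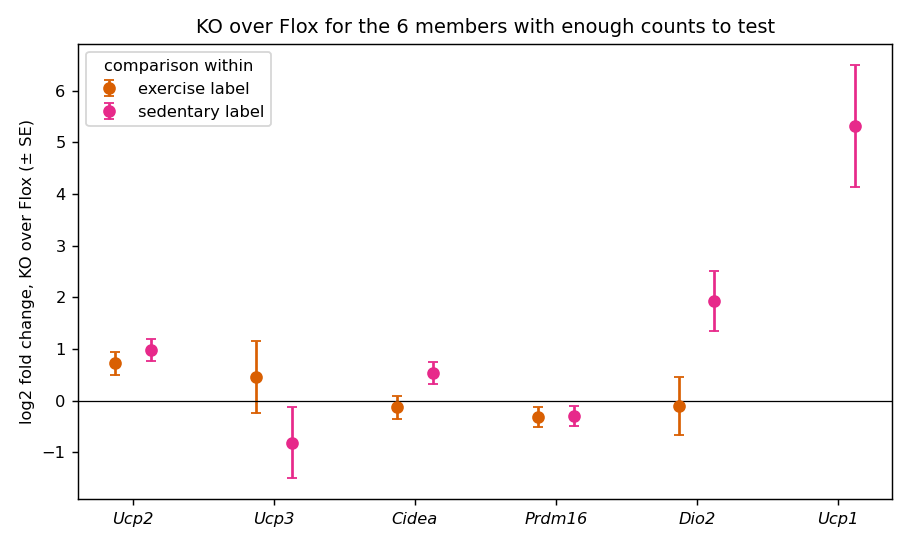
Log2 fold change of KO over Flox with its SE for the 6 members with enough counts, under the exercise label (left of each pair) and the sedentary label (right), from edgeR. Under the sedentary label Ucp1 (5.32), Dio2 (1.92), Ucp2 (0.98) and Cidea (0.53) lie above 0 by more than their SE. Ucp2 does so under the exercise label too (0.72). Ucp3 under the sedentary label (-0.81) and Prdm16 under the exercise (-0.31) and sedentary (-0.30) labels lie below 0 by more than their SE. EdgeR called 0 of the 6 under either label. Ucp1 has no point under the exercise label because its 6 libraries held 1 count in all.

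Ucp1, the proton carrier of brown fat, was the most uneven member. It had 0, 1 and 0 counts in the 3 KO libraries labelled exercise, 0 in each of the 3 Flox libraries labelled exercise, 473, 758 and 2125 in KO labelled sedentary, against 66, 3 and 0 in Flox labelled sedentary. In CPM this is 22.8, 33.9 and 96.9 in KO labelled sedentary, against 3.89, 0.157 and 0 in Flox labelled sedentary. Every KO library labelled sedentary was above all 9 others, and the lowest of them was above the highest Flox library several times over.

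The log2 fold change of Ucp1 for KO over Flox within the sedentary label was 5.32 ± 1.18 (SE), with an adjusted p of 0.165 by edgeR, higher in 3 of 3 KO libraries. Summed over each group there were 3356 counts in KO and 69 in Flox, a ratio of 41.8 after scaling to library size (95% exact interval 32.9 to 53.8, for counting error only). Flox replicate 1 held 66 of the 69 Flox counts. Without that library the log2 fold change was 9.26 (adjusted p = 0.108), and without KO replicate 3, the highest, it was 4.44 (adjusted p = 0.469).

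Between treatment labels in KO mice, 1 Ucp1 count under the exercise label stood against 3356 under the sedentary label, a level 2970-fold lower (95% exact interval 533 to 117000, for counting error only). The unadjusted p was 0.000991 and the adjusted p 0.21 by edgeR. DESeq2 gave an adjusted p of 0.00245. Without KO labelled sedentary replicate 1, edgeR gave 0.0481. In Flox mice, 0 counts under the exercise label stood against 69, of which replicate 1 held 66, and the libraries of the labels overlapped. The sum was at least 22.5-fold lower with a floor of 3 counts over the group, with an adjusted p of 0.716 by edgeR. KO and Flox labelled exercise both lay under that floor, and no fold is given between them.

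Elovl3, an elongase of saturated fatty acids induced in brown fat by cold, was near the limit of detection, with most of its counts in the KO libraries labelled sedentary. Its counts were 0, 0 and 0 in KO labelled exercise, 0, 0 and 1 in Flox labelled exercise, 4, 10 and 47 in KO labelled sedentary, against 4, 1 and 1 in Flox labelled sedentary. Only replicates 2 and 3 of KO labelled sedentary exceeded 4 counts, and KO replicate 1 equalled Flox replicate 1 in counts. The sums were 61 in KO and 6 in Flox under the sedentary label, a ratio of 8.73 (95% exact interval 3.79 to 24.7, for counting error only). KO labelled exercise was at least 18-fold lower than KO labelled sedentary with the floor of 3 counts over the group. With every gene that had a count kept in the fit, edgeR's log2 fold change of Elovl3 for exercise over sedentary labels in KO had an adjusted p of 0.0429, and for KO over Flox within the sedentary label it was 3.01 (adjusted p = 0.198). The first call was not stable. Fits that left out 1 library and still tested Elovl3 gave adjusted p-values of 0.221 to 0.473 by edgeR, except 0.0245 without KO labelled sedentary replicate 1.

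Other genes of brown fat were read from a list of 24, of which 21 had enough counts. Some, such as Clstn3, Adrb3 and Otop1, had enough counts through KO labelled sedentary alone. The calls and the median of the list thus lean toward genes high in that group. Under the sedentary label 1 was higher in KO and 0 lower by edgeR, with a median log2 fold change of 0.12 beside 0 over all genes. The one that passed was Clstn3, whose adipocyte transcript encodes a lipid droplet protein of brown fat. It had 51, 47 and 130 counts in KO labelled sedentary, against 9, 9 and 7 in Flox labelled sedentary, and 2 to 5 in the 6 libraries labelled exercise. Its log2 fold change was 2.94 ± 0.45 (adjusted p = 0.0226, edgeR) for KO over Flox within the sedentary label and -4.15 ± 0.50 (adjusted p = 0.0195) for exercise over sedentary labels in KO. With all libraries kept the first call held in 7 of 12 other settings. It was lost with limma-voom (adjusted p = 0.104), a covariate for the atrial markers (0.616) or the adipocyte markers (0.912), the 2 groups alone (0.0519) and a term for a cloning-vector entry described below (0.0522). It held in 8 of the 12 fits that left out 1 library. It was lost without KO labelled sedentary replicate 3 (adjusted p = 0.101) or any 1 of the Flox libraries labelled sedentary (adjusted p up to 0.175). The second held in 7 of the 12 settings with all libraries kept. It was lost with limma-voom (0.108), the atrial (0.204) or adipocyte covariate (0.957), the 2 groups alone (0.12) and the vector term (0.0508). It held in 7 of the 12 fits without 1 library and was lost without KO labelled sedentary replicate 3, Flox labelled sedentary replicate 2 or any 1 of the KO libraries labelled exercise (adjusted p up to 0.135). Averaged over genotypes, exercise over sedentary labels gave -2.47 ± 0.37 for Clstn3 (adjusted p = 0.0486), which held in 4 of 11 settings with all libraries kept and in 2 of the 12 fits without 1 library.

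Adrb3, the beta-3 adrenergic receptor of fat cells, had the next smallest p of the list. It had 27, 29 and 62 counts in KO labelled sedentary, against 8, 0 and 0 in Flox labelled sedentary (log2 fold change 3.56 ± 0.90, adjusted p = 0.134, edgeR). Otop1 and Slc27a2 are named after their values were seen, because they were among the list genes with 0 counts in all 6 libraries labelled exercise and some in KO labelled sedentary. Otop1, a proton channel of brown fat, had 21, 14 and 73 counts in KO labelled sedentary, against 3, 0 and 0 in Flox labelled sedentary. Slc27a2, a fatty acyl-CoA synthetase, had 14, 15 and 92 counts in KO labelled sedentary, against 4, 0 and 0 in Flox labelled sedentary. Replicate 3 was highest for both, as for Ucp1, while replicate 2 had fewer Otop1 counts than replicate 1. Their adjusted p-values for KO over Flox within the sedentary label were 0.15 for Otop1 and 0.207 for Slc27a2 by edgeR. Of the 21 genes of the list 11 had a fold change above 0. Cox7a1 and Cox8b, respiratory chain subunits of muscle and brown fat, and Cpt1b, which brings fatty acids into mitochondria, had lower means in KO and are also named after their values were seen. They averaged 403, 303 and 480 CPM in KO labelled sedentary, against 597, 413 and 595 in Flox labelled sedentary (log2 fold changes -0.56 ± 0.19, -0.45 ± 0.19 and -0.31 ± 0.16, adjusted p = 0.22, 0.337 and 0.426, edgeR).

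Zic1 and Lhx8 are transcription factors that mark classical brown fat in the mouse. Zic1 was at 0 except for 2 counts in Flox labelled sedentary replicate 2, and Lhx8 was at 0 except for 1 count in KO labelled sedentary replicate 2. The libraries with the most Ucp1 held nearly no reads of these markers. At 473 to 2125 Ucp1 counts, a gene expressed far below Ucp1 in the same cells could also read 0. These counts therefore do not tell types of fat apart. Ppargc1a, a co-activator of mitochondrial genes, averaged 74.0 ± 10.2 CPM in KO labelled sedentary and 88.6 ± 14.6 in Flox labelled sedentary (SD, n = 3 each).

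**Figure D3:**
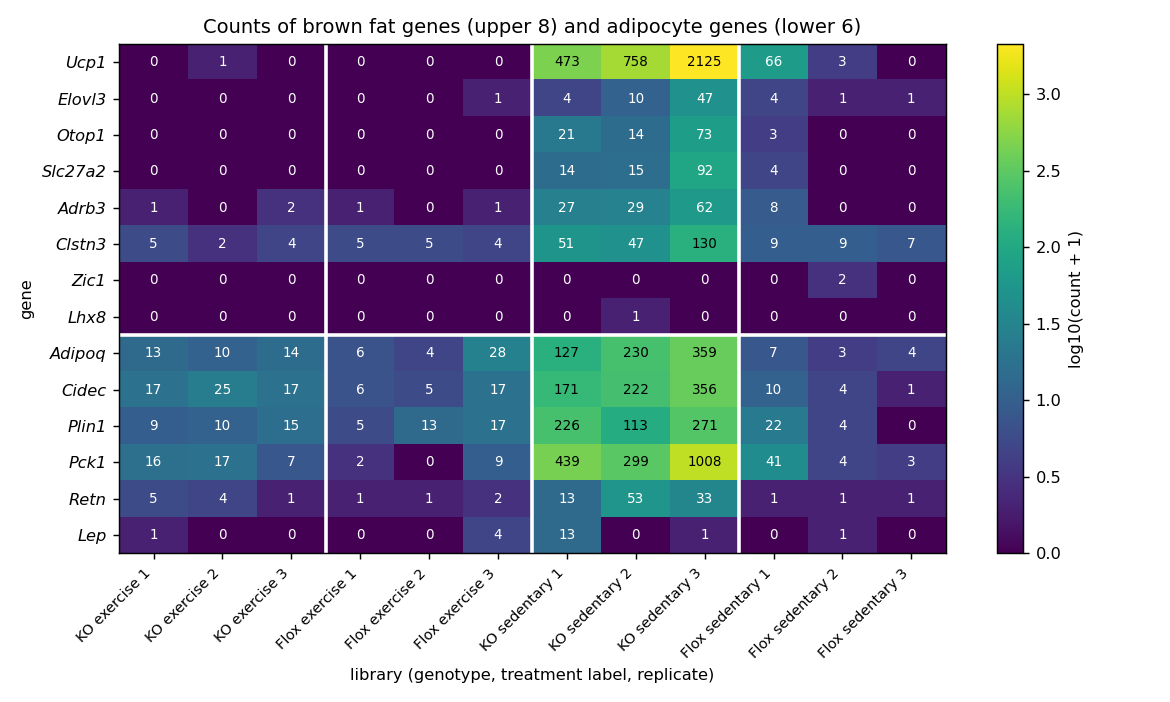
Counts of 8 brown fat genes (upper block) and 6 adipocyte genes (lower block) in each library, with colour on a log10(count + 1) scale and the count printed in each cell. Adipocyte markers with lower means in KO than in Flox labelled sedentary, such as Fabp4 and Plin4, are not shown. Brown fat genes with lower means there, such as Cox7a1, Cox8b and Cpt1b, are not shown either. Of the 21 genes tested of the brown fat list, 11 had a fold change above 0 in that comparison. Ucp1, Otop1, Slc27a2 and Adrb3 are high in the 3 KO libraries labelled sedentary and at most 66, 3, 4 and 8 counts elsewhere, while Adipoq and Cidec keep 3 to 28 and 1 to 25 counts in the other 9 libraries.

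Most genes of fat cells in general were higher in the same KO libraries. Of the adipocyte markers tested, 13 of 18 had a fold change above 0 for KO over Flox within the sedentary label. Fabp4, Plin4, Lipe, Aqp7 and Pparg had lower means in KO. They averaged 468, 169, 45.1, 30.8 and 8.37 CPM in KO labelled sedentary, against 571, 205, 51.1, 41 and 9.32 in Flox labelled sedentary. Of 20 adipocyte markers 18 were tested, and for KO over Flox within the sedentary label 6 were higher and 0 lower by edgeR, with a median log2 fold change of 4.06 beside 0 over all genes. The 6 were Cidec, a lipid droplet protein (5.36 ± 0.57, adjusted p = 0.0037), Cyp2e1, a cytochrome P450 (4.85 ± 0.51, adjusted p = 0.0037), Adipoq, the hormone adiponectin (5.4 ± 0.66, adjusted p = 0.009), Cebpa, a transcription factor (1.48 ± 0.21, adjusted p = 0.0158), Retn, the hormone resistin (4.65 ± 0.70, adjusted p = 0.0226), and Acvr1c, an activin receptor (5.86 ± 0.99, adjusted p = 0.0459). Leaving out 1 library at a time gave between 1 such gene (without Flox labelled sedentary replicate 2) and 11 (without KO labelled sedentary replicate 1), and each log2 fold change of the 6 kept its sign. Acvr1c passed in 5 of those 12 fits, Retn in 7, Cebpa in 8, Adipoq in 10, Cidec in 11 and Cyp2e1 in 12. With a covariate for the atrial markers, which are also high in this group, 2 of the 18 passed, Cidec and Cyp2e1 (adjusted p = 0.0395 and 0.0442), while Adipoq (0.206), Cebpa (0.381), Retn (0.558) and Acvr1c (0.192) did not. With limma-voom 4 passed, but not Adipoq (0.0701), Retn (0.115) or Acvr1c (0.0905). Acvr1c was also lost with the replicate block (0.0589) and, like Retn, with the vector term (0.0707 and 0.0508). With the adipocyte markers themselves as a covariate 0 passed. The filter on counts lets a gene in through KO labelled sedentary alone, so the median and the calls lean toward genes high in that group. Acvr1c (27, 17 and 47 counts there, at most 7 elsewhere) and Retn (13, 53 and 33 counts there, at most 5 elsewhere) entered so. With every gene with a count kept, all 20 markers were tested: 7 were higher, 0 lower and the median was 3.54.

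Under the exercise label 0 of the 18 adipocyte markers passed for KO over Flox, with a median of 0.06. For exercise over sedentary labels in KO 1 was lower, Cidec (-3.48 ± 0.48, adjusted p = 0.0482), with a median of -2.76. That call was lost with RLE size factors (0.0502), the replicate block (0.0984), the atrial (0.208) or adipocyte covariate (0.949) and the vector term (0.0915). It held in 5 of the 12 fits without 1 library. It was lost without any 1 of the KO libraries labelled exercise, KO labelled sedentary replicate 2 or 3, Flox labelled exercise replicate 1 or Flox labelled sedentary replicate 2 (adjusted p up to 0.312). Averaged over treatment labels, Cidec (3.17 ± 0.40) and Cyp2e1 (2.87 ± 0.35) passed for KO over Flox, both with an adjusted p of 0.0108. With the atrial covariate both had 0.0711, and with limma-voom Cidec had 0.075. The markers' part in the Ucp1 values was not tested beyond the covariate fit described with the processing alternatives.

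Ucp1 was set against Adipoq, which both white and brown fat cells make; this pair was chosen after the values were seen. In KO labelled sedentary there were 473 Ucp1 and 127 Adipoq counts, 758 and 230, and 2125 and 359, or 3.72, 3.3 and 5.92 Ucp1 counts for each Adipoq count. Flox labelled sedentary had 66 and 7, 3 and 3, and 0 and 4 counts. In the 6 libraries labelled exercise, 4 to 28 Adipoq counts stood beside 0 or 1 Ucp1 count. KO labelled exercise had 0 Ucp1 and 13 Adipoq counts, 1 and 10, and 0 and 14, and Flox labelled exercise had 0 and 6, 0 and 4, and 0 and 28. In the library with 28 Adipoq counts, a floor of 3 counts allows at most 0.107 Ucp1 counts for each Adipoq count. That lies below the ratio in each of the 3 KO libraries labelled sedentary. The share of Ucp1 in the sum of both counts averaged 1.52% ± 3.71 under the exercise label and 63.6% ± 34.2 under the sedentary label over both genotypes (SD, n = 6 each), a difference of -62.1 percentage points. A two-sided exact permutation test over the 12 libraries gave p = 0.0152, where the smallest possible is 0.00216. The pair and the test were chosen after the values were seen, so no conclusion is drawn from this p-value. Labels were moved without regard to genotype, and shares from few counts weighed as much as shares from many. The shares in Flox labelled sedentary were 90.4%, 50% and 0%. Of the 9 libraries other than KO labelled sedentary, 8 held at most 3 Ucp1 counts, so each of those shares rests on few counts. Flox labelled sedentary replicate 3 had a share of 0, as 5 of the 6 libraries labelled exercise did.

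**Figure D4:**
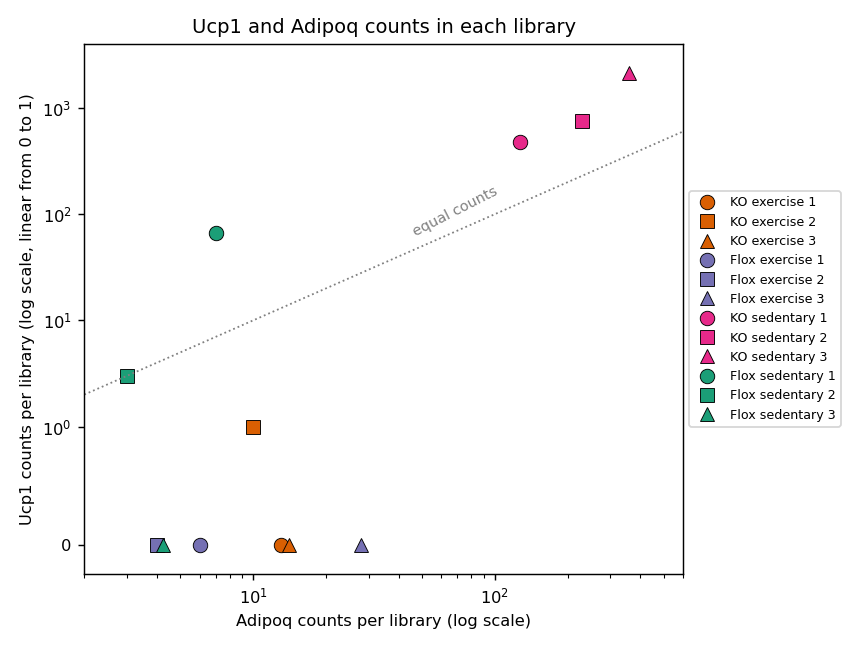
Ucp1 counts (log axis, linear from 0 to 1) against Adipoq counts (log axis) in each library, with colour for the group, shape for the replicate and a dotted line at equal counts. Points at the same place are set slightly apart. The 3 KO libraries labelled sedentary lie above the line at 127 to 359 Adipoq counts, and the 6 libraries labelled exercise lie at 0 or 1 Ucp1 count with 4 to 28 Adipoq counts.

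Atrial markers and Ucp1 were set side by side. Flox labelled exercise replicate 2 and Flox labelled sedentary replicate 3, with 4870 and 4330 CPM of atrial markers, had 0 Ucp1 counts each. KO labelled sedentary replicate 1, with 1680 CPM of atrial markers, had 473. Among the 3 KO libraries labelled sedentary Ucp1 and the atrial markers had the same order. With the atrial covariate the log2 fold change of Ucp1 for KO over Flox within the sedentary label was 4.88 ± 2.26 (adjusted p = 1, edgeR). The part of atrial tissue in the Ucp1 values was not tested further. A cloning-vector entry of the table had over 10000 counts in 7 libraries and at most 1 in the other 5, which the labels do not explain. With that entry Ucp1 was 22.8 CPM in KO labelled sedentary, against 0.157 and 0 in Flox labelled sedentary. Without it Ucp1 was 33.9 and 96.9 CPM in KO, against 3.89 in Flox. Each side holds 1 library of 1 genotype, so no test within it was made. With a term for the entry, chosen after the data were seen, the log2 fold change was 5.05 ± 0.81 (adjusted p = 0.117, edgeR).

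Dio2, the type 2 deiodinase that makes active thyroid hormone from thyroxine, was low in all hearts. It had 1.24, 1.08 and 4 CPM in KO labelled exercise, 2.96, 1.52 and 2.27 in Flox labelled exercise, 4.97, 1.88 and 5.2 in KO labelled sedentary, against 1.18, 0.472 and 1.51 in Flox labelled sedentary. These are 21 to 75, 29 to 52, 42 to 114 and 9 to 30 counts. For each Adipoq count there were 0.811, 0.183 and 0.318 Dio2 counts in KO labelled sedentary. The other libraries, with 3 to 28 Adipoq counts each, had 1.46 to 8.67. Under the sedentary label each KO library lay above each Flox library, while under the exercise label the genotypes overlapped.

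For KO over Flox the log2 fold change of Dio2 was -0.10 ± 0.56 under the exercise label (adjusted p = 0.975) and 1.92 ± 0.58 under the sedentary label (adjusted p = 0.191, edgeR). DESeq2 gave the same 1.92 an adjusted p of 0.038. The interaction was -2.02 ± 0.80 with an adjusted p of 0.477. For exercise over sedentary labels it was -0.93 ± 0.55 in KO (adjusted p = 0.554) and 1.09 ± 0.59 in Flox (adjusted p = 0.712).

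Around Dio2, 15 of 17 genes of thyroid hormone handling and response were tested, and their median log2 fold change for KO over Flox within the sedentary label was -0.11, beside 0 over all genes. Thrsp, a thyroid-responsive gene of fat synthesis, had a log2 fold change of 0.90 ± 0.27 (adjusted p = 0.186, edgeR). Thra, the main thyroid receptor of the heart, averaged 72.6 ± 6.18 CPM in KO labelled sedentary and 77.6 ± 2.41 in Flox labelled sedentary. Dio1, the liver and kidney deiodinase, had 0 counts in all 12 libraries, and Dio3, which inactivates the hormone, had at most 3.

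Ucp2, the relative found in most tissues and in immune cells, had close replicates in KO labelled sedentary. Its level was 152, 78.9 and 138 CPM in KO labelled exercise, 75.6, 82.5 and 65.1 in Flox labelled exercise, 137, 138 and 146 in KO labelled sedentary, against 53.3, 83.9 and 75.7 in Flox labelled sedentary. Of the 6 KO libraries 5 were at 137 CPM or more, and all 6 Flox libraries were at 83.9 or less. The exception was KO labelled exercise replicate 2, within the Flox range.

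Mean Ucp2 was 140 ± 4.85 CPM in KO and 70.9 ± 15.9 in Flox under the sedentary label (SD, n = 3 each). The log2 fold change was 0.98 ± 0.22, a 1.98-fold higher level, with an adjusted p of 0.0994 by edgeR. Under the exercise label it was 0.72 ± 0.22 (adjusted p = 0.601), and averaged over labels 0.85 ± 0.16 (adjusted p = 0.114). DESeq2 called the sedentary and the averaged comparison, with adjusted p-values of 0.00288 and 7.55e-05. EdgeR called neither with all libraries kept, and each in 1 of the 12 fits that left out 1 library. That fit left out KO labelled exercise replicate 2. Its adjusted p was 0.03 under the sedentary label and 0.00805 on average.

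Exercise over sedentary labels gave -0.19 ± 0.22 for Ucp2 in KO (adjusted p = 0.771) and 0.07 ± 0.22 in Flox (adjusted p = 0.958), and the interaction was -0.26 ± 0.31 (adjusted p = 0.786). The KO library that stood low in Ucp2 had 328 CPM of atrial markers, the fewest of the KO libraries. The Flox libraries richest in them, at 4870 and 4330 CPM, had Ucp2 at 82.5 and 75.7 CPM. With a covariate for the atrial markers, the Ucp2 log2 fold change for KO over Flox within the sedentary label was 0.64 ± 0.24 (adjusted p = 1). Macrophage markers, cells in which Ucp2 is abundant, summed to 323 to 520 CPM in KO labelled sedentary and 282 to 329 in Flox labelled sedentary. None of the 10 passed (median 0.45, smallest adjusted p 0.318 for Lyz2), and their part in Ucp2 was not tested. The last 305 bases of Ucp2 overlap Dnajb13 on the other strand, and with the strand setting not given their reads cannot be told apart.

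Ucp3, the uncoupling protein of muscle and heart, lies 6904 bases before Ucp2 on chromosome 7 and did not follow it. It had 69.8, 74.2 and 10.7 CPM in KO labelled exercise, 55.3, 36.1 and 21.3 in Flox labelled exercise, 63, 25.3 and 20.1 in KO labelled sedentary, against 70.1, 54.5 and 65.4 in Flox labelled sedentary. In 3 of the 4 groups the libraries ranged more widely than the group means did, and all comparisons overlapped. The log2 fold change for KO over Flox was 0.46 ± 0.69 under the exercise label (adjusted p = 0.874) and -0.81 ± 0.69 under the sedentary label (adjusted p = 0.669). For exercise over sedentary labels it was 0.52 ± 0.69 in KO (adjusted p = 0.814) and -0.75 ± 0.69 in Flox (adjusted p = 0.833), with an interaction of 1.27 ± 0.98 (adjusted p = 0.666).

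Ucp3 was read beside 23 targets and partners of the fatty acid sensor PPAR alpha, of which 21 were tested. For KO over Flox within the sedentary label 0 passed (median -0.32), and the smallest adjusted p-values were 0.216 for Acadvl (-0.46 ± 0.15), an enzyme of fatty acid oxidation, and 0.232 for Fabp3 (-0.49 ± 0.16), the fatty acid binding protein of heart. The list's mean log2 CPM, over the 21 tested genes, was 6.83, 6.64 and 6.27 in KO labelled exercise, 6.87, 6.61 and 6.54 in Flox labelled exercise, 6.68, 6.14 and 6.09 in KO labelled sedentary, against 6.67, 6.58 and 6.58 in Flox labelled sedentary. The 4 libraries with the least Ucp3 (10.7 to 25.3 CPM) were the 4 with the lowest list mean. This was seen after the values were known and is a description of 12 libraries.

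Of 8 other uncoupling relatives and mitochondrial carriers 7 were tested, and 0 passed for KO over Flox within the sedentary label (median 0.01). Slc25a4, the ADP/ATP carrier of heart muscle, averaged 3510 ± 145 CPM in KO and 4590 ± 269 in Flox (-0.39 ± 0.13, adjusted p = 0.242). Slc25a11, the oxoglutarate carrier, had -0.30 ± 0.13 (adjusted p = 0.335). The brain-type relative Slc25a27 averaged 6.68 ± 1.54 CPM in KO labelled sedentary and 7.05 ± 1.23 in Flox labelled sedentary.

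Cidea, which promotes the fusion and growth of lipid droplets in fat cells, was present in every heart. It had 28.6, 19.9 and 26.5 CPM in KO labelled exercise, 32.9, 19.9 and 29.4 in Flox labelled exercise, 33.3, 29.4 and 47.9 in KO labelled sedentary, against 28.2, 22.7 and 25.6 in Flox labelled sedentary. KO labelled sedentary replicate 3, the library with the most Ucp1, was highest, and every heart had at least 19.9 CPM. For KO over Flox the log2 fold change was -0.13 ± 0.22 under the exercise label (adjusted p = 0.884) and 0.53 ± 0.21 under the sedentary label, 1.45-fold (adjusted p = 0.307). For exercise over sedentary labels it was -0.56 ± 0.21 in KO (adjusted p = 0.408) and 0.10 ± 0.22 in Flox (adjusted p = 0.934). The interaction was -0.66 ± 0.30 (adjusted p = 0.503).

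Among 18 lipid droplet genes, all tested, 1 was higher and 0 lower for KO over Flox within the sedentary label (median -0.10). It was Cidec, the fat-cell relative of Cidea, at 11.5 ± 4.21 CPM in KO and 0.283 ± 0.277 in Flox. Fitm1, a lipid droplet protein of muscle, had -0.68 ± 0.13 (adjusted p = 0.0769).

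Prdm16, also a cardiomyocyte and endothelial transcription factor, had the narrowest range of the heart-expressed genes in CPM. It had 19, 15.1 and 17 CPM in KO labelled exercise, 23.9, 17.5 and 21.8 in Flox labelled exercise, 18.2, 15.6 and 10.2 in KO labelled sedentary, against 19.5, 15.3 and 19.3 in Flox labelled sedentary. The groups overlapped in every comparison, and the lowest value came from the library with the most Ucp1. The log2 fold change for KO over Flox was -0.31 ± 0.19 under the exercise label (adjusted p = 0.703), -0.30 ± 0.19 under the sedentary label (adjusted p = 0.526) and -0.30 ± 0.13 on average (adjusted p = 0.407). For exercise over sedentary labels it was 0.22 ± 0.19 in KO (adjusted p = 0.7) and 0.23 ± 0.19 in Flox (adjusted p = 0.813).

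Of 12 partners and regulators of Prdm16, all tested, 0 passed for KO over Flox within the sedentary label (median 0). The smallest adjusted p-values were 0.231 for Tle3, a co-repressor that opposes Prdm16 in fat (0.34 ± 0.11), and 0.396 for Ctbp1, a co-repressor that binds it (-0.23 ± 0.11). Ebf2, which marks brown fat precursors, averaged 10.4 ± 1.96 CPM in KO labelled sedentary and 8.27 ± 1.83 in Flox labelled sedentary.

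Beside Elovl3, 13 genes of fatty acid elongation and desaturation were read, and 10 were tested. For KO over Flox within the sedentary label 1 was higher and 0 lower (median 0.38). It was Scd1, a desaturase and not an elongase, with 151, 64.1 and 173 CPM in KO labelled sedentary, against 25.2, 18.1 and 15.8 in Flox labelled sedentary (2.72 ± 0.37, adjusted p = 0.0226). With all libraries kept, Scd1 passed in 8 of 12 other settings and was lost with the atrial (adjusted p = 0.381) or adipocyte covariate (0.712), the 2 groups alone (0.0757) and the vector term (0.0612). It passed in 6 of the 12 fits without 1 library, with log2 fold changes from 2.44 to 3.03 and an adjusted p of up to 0.175. The call was lost without KO labelled exercise replicate 1, Flox labelled exercise replicate 2, KO labelled sedentary replicate 3 or any 1 of the Flox libraries labelled sedentary. Elovl6, an elongase of fat synthesis, averaged 6.17 ± 4.05 CPM in KO and 1.10 ± 0.398 in Flox (2.5 ± 0.52, adjusted p = 0.0853). Elovl5, an elongase of polyunsaturated chains, averaged 35.7 ± 1.90 CPM in KO labelled sedentary and 32.0 ± 3.04 in Flox labelled sedentary.

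The marker lists of other cells gave 0 calls in either direction for KO over Flox within the sedentary label. Their median log2 fold changes were 2.84 for atrial cardiomyocytes, -0.35 for ventricular cardiomyocytes, 1.30 for skeletal muscle, 0.66 for fibroblasts, 0.06 for endothelial cells and 1.60 for mesothelium. The atrial genes with the smallest p were Bmp10, with an unadjusted p of 0.0325 (adjusted p = 0.321), and Stard10 (2.33 ± 1.00, adjusted p = 0.363). Among ventricular genes Myl2 (-0.83 ± 0.19, adjusted p = 0.0994) and Myl3 (-0.79 ± 0.23, adjusted p = 0.167) came first. For the others the 2 smallest were Atp2a1 and Tnni2 in skeletal muscle (adjusted p = 0.193 and 0.241), Dpt and Tcf21 in fibroblasts (0.172 and 0.174), Emcn and Kdr in endothelium (0.388 and 0.506), Upk1b and Upk3b in mesothelium (0.672 and 0.687), and Lyz2 and C1qa in macrophages (0.318 and 0.38). These p-values are edgeR's, adjusted over all genes tested.

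Likeness to other genes was measured as Pearson's r of log2 CPM over the 12 libraries, which share the groups and the tissue makeup described above, and is given without a test. The genes most like Ucp1 were Clstn3 (r = 0.945), Car5b (0.944), a mitochondrial carbonic anhydrase, and Pck1 (0.941), an enzyme that also supplies glycerol in fat. For Ucp2 they were Golim4 (0.93), Dpysl3 (0.924) and Rgs6 (0.918). Ucp3 was nearest to Gramd1b (0.951), Lipe (0.937), the hormone-sensitive lipase, and Klhdc3 (0.92). Cidea had no gene above 0.859, with Uck1 (0.859), Cnpy3 (0.853) and 1110065P20Rik (0.851) first. Dio2 was nearest to Zfp423 (0.894), a fat-precursor transcription factor, Fetub (0.867) and Ubtd1 (0.862), and Prdm16 to Mcc (0.946), Rims4 (0.937) and Itgb6 (0.934). No member was among the nearest genes of another. The largest r between 2 members was 0.71, for Cidea and Dio2, and that of Ucp1 with Ucp2 was 0.42.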

How the data were processed

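RNA of 12 whole mouse hearts was depleted of ribosomal RNA before libraries were made, per the labels' protocols. The authors deposited estimated counts for each gene symbol with no scaling. The submitters' processing notes name FastQC, Salmon (which estimates transcript counts) and the builds mm9 and mm10, without version or role. For the annotation, the strand setting and the summing over transcripts, details were not given in the sources used here. Of a library's values 21.6% to 26.4% were not whole (tolerance 0.0005), and counts were rounded before testing. Salmon shares reads out between overlapping transcripts, so values of genes with overlapping neighbours are uncertain to that extent.

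Of 55874 entries, 1696 cloning-vector, phage and linker entries (3.87e-05% to 0.186% of counts) were left out, leaving 54178. Mitochondrially encoded entries took 21.6% to 28.3% of counts. No replicate pair looked like a library entered again (chi-square per degree of freedom 17.5 to 89.5). Counting intervals and floors (3 counts) cover counting error only, at a confidence of 95%.

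Tests were edgeR 4.0.16 in R 4.3.3: filterByExpr, TMM, a model of 4 group means over all 12 libraries, robust glmQLFit, glmQLFTest and Benjamini-Hochberg adjustment over 15226 genes at 0.05. The filter by group keeps a gene with enough counts in 3 libraries. A gene can thus pass through a single group, as Ucp1 did through KO labelled sedentary. The scripts were tested on simulated counts. Alternatives were other scalings and filters, DESeq2 1.42.0, limma-voom (limma 3.58.1), a replicate block, the compared groups alone, marker covariates, mitochondrial genes left out and each library left out. The named genes are the 7 members, every list gene that passed, the 2 smallest p-values of each list for KO over Flox within the sedentary label, and the 3 genes most correlated (log2 CPM, prior count 2) with each member averaging at least 1 CPM. A result that this rule would name is not reported here. Other genes named for background were chosen after their values were seen. The members and lists were chosen with earlier results of these data known. Transcript lengths, overlaps and distances come from the GENCODE annotation of GRCm38, and promoter sequences from RefSeq, GRCm38.p6.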

Additional observations from a re-analysis of the deposited data

How the results depend on the processing

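Of 363 member values under alternatives that kept all libraries, 351 kept their sign and side of the threshold, and of 372 that left out 1 library, 360 did. These follow a chosen 31 member values of the main fit, without Elovl3, which that fit did not test. EdgeR called 0 of the 31, so keeping the side of the threshold meant staying without a call. DESeq2 called 2 members for KO over Flox within the sedentary label, 1 averaged over labels, 1 for exercise over sedentary labels in KO and 1 averaged over genotypes, where edgeR called 0 of each. In those comparisons DESeq2 called 394, 172, 121 and 51 genes in all, against edgeR's 19, 8, 3 and 4. Keeping every gene with a count gave 1 member, Elovl3, for exercise over sedentary labels in KO, where 30 of 27531 genes (0.109%) were called. Leaving out 1 library gave 0 to 1 members for KO over Flox within the sedentary label, 0 to 1 averaged over labels, and 0 to 2 for exercise over sedentary labels in KO, where Ucp1 and Elovl3 (adjusted p = 0.0481 and 0.0245) passed without KO labelled sedentary replicate 1. That fit called 566 genes in all (3.63%). For KO over Flox, Ucp2 passed without KO labelled exercise replicate 2. The fit without that library called 0.225% of genes within the sedentary label and 0.218% averaged over treatment labels.

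With the adipocyte marker mean as a covariate, the log2 fold change for KO over Flox within the sedentary label turned to -4.75 for Ucp1, 0.29 for Ucp3, -0.20 for Cidea and 0.14 for Prdm16, and for exercise over sedentary labels in KO to -0.31 for Ucp3, 0.02 for Cidea and -0.12 for Prdm16. The covariate does not overlap between KO labelled sedentary and the other libraries, so it and that group cannot be told apart. Values near 0 also turned when 1 library was left out: for KO over Flox within the exercise label Dio2 ran from -0.95 to 0.22 and Cidea from -0.31 to 0.02, for exercise over sedentary labels in Flox Ucp2 ran from -0.10 to 0.21 and Cidea from -0.05 to 0.28, and in KO Ucp2 ran from -0.37 to 0.05. The cause was not tested.

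Same-numbered replicates did not deviate together more than others (correlations of 18 pairs -0.319 to 0.306, 6 over 0.1, against 36 other pairs at -0.393 to 0.279, 10 over 0.1). No pairing by number was seen, but such correlations cannot exclude one. With the replicate number as a block, KO over Flox within the sedentary label was 0.98 for Ucp2 (adjusted p = 0.124) and 1.93 for Dio2 (adjusted p = 0.0643), and the block changed no member's call. Plain library totals moved the median gene by 0.18 for KO over Flox within the sedentary label, and gave Ucp2 1.16 (adjusted p = 0.0505). A term for the cloning-vector entry, chosen after seeing the data, gave Ucp2 0.89 averaged over labels (adjusted p = 0.0508). Depth limits Ucp1, Elovl3 and Adipoq under the exercise label, where each library holds at most 28 counts of each.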
